A study of Mus musculus with 4 samples.

Results

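The chromatin at 48 genes of the cell cycle and mitosis was compared between RXR-deficient and control large peritoneal macrophages (LPMs), the resident macrophages of the peritoneal cavity. The genes were listed by function, and their open regions were found by position. Peaks of the 4 libraries sharing at least 1 bp were merged into 70744 regions. A region was given to a gene when its midpoint had that gene's transcription start site (TSS) as the nearest RefSeq TSS, or when it overlapped the gene body. This rule found 190 regions, at least 1 for each of the 48 genes. Of these, 59 were promoter regions, whose midpoint fell no more than 1 kb before or 200 bp after a TSS, and 131 were other regions. Among the promoter regions, 55 lay at the promoter of the gene itself and 4 at the promoter of another gene only. Of the other regions, 62 lay in introns, 50 upstream, 13 downstream and 6 in exons.

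Accessibility was measured by ATAC-seq: a transposase, Tn5, inserts sequencing adaptors wherever DNA is not packed away. LPMs were sorted from the peritoneal cavity of C57BL/6 mice at 9 weeks of age, with 40000 cells per library, and the labels place all 4 libraries in library batch 1. Both genotypes carried homozygous loxP-flanked Rxra and Rxrb alleles, which encode the nuclear receptors RXRα and RXRβ. Rxrab fl/fl mice, the littermate controls, lacked Cre. LysMCre+ Rxrab fl/fl mice expressed Cre from the LysM locus and are called RXR-deficient, and this Cre deletes floxed genes in myeloid cells at large and not in LPMs alone. Each genotype has 2 libraries, numbered 1 and 3 for the control and 1 and 2 for the RXR-deficient mice. The sources do not say whether a library held 1 animal or several, so p-values measure only the spread between these libraries. A sort removes most other cells, but within a library an opening in fewer cells and a weaker opening in all cells cannot be told apart.

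Cyclins activate cyclin-dependent kinases (CDKs), which carry cells from the decision to divide through DNA replication and into mitosis. D-type cyclins with Cdk4 or Cdk6 release E2F factors from the retinoblastoma protein, and E2F targets make the replication machinery. Later, Foxm1 and the genes it helps to switch on drive chromosome condensation, spindle assembly and division, and adult LPMs are known to renew by dividing in place at a low rate.

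The libraries differed in strength before any gene was considered. The 2 control libraries gave 38048 (replicate 1) and 16097 peaks (replicate 3) in MACS2, and the 2 RXR-deficient libraries 65421 (replicate 1) and 55581 (replicate 2). Over the 15199 regions called in all 4 libraries, the median fold enrichment was 14.5 and 7.52 in the control libraries and 15.1 and 12.0 in the RXR-deficient ones. The median pileup, the number of extended reads over the summit, was 97, 20, 99 and 65 in the same order. Control replicate 3 therefore stood apart as the weakest library, and a region not called there is only one that did not pass the q threshold. All 10 LPM marker genes had regions, with 64, 32, 75 and 75 of their 86 regions called and a summed pileup of 4773, 788, 3923 and 3431. Regions of B cell markers were called 3, 0, 13 and 10 times of 14, with none at Cd79a, and their summed pileup was 92, 0, 358 and 233. Regions of T and NK cell markers numbered 15, 4, 29 and 21 of 30 (summed pileup 666, 98, 911 and 567), with none at Cd3g. Those of small peritoneal macrophages, monocytes and dendritic cells numbered 41, 12, 87 and 75 of 102 (1613, 240, 2921 and 2136), and those of neutrophils 5, 1, 11 and 10 of 13 (223, 15, 438 and 348). Mesothelial markers had 1, 1, 7 and 7 of 8 regions (43, 13, 236 and 166), with none at Wt1, and mast cell and eosinophil markers 3, 2, 4 and 3 of 4 (96, 23, 131 and 109), with none at 5 of their 7 genes. The summed pileup was thus higher in both RXR-deficient libraries than in either control library for every list except those of LPMs, where control replicate 1 was highest, and of T and NK cells, where control replicate 1 was above RXR-deficient replicate 2. These sums cover called regions only and are not centred for the strength of the library. Of all other regions, 45.56, 14.35, 89.42 and 74.19% were called in the same order. Of all promoter regions, the shares were 81.31, 56.01, 96.46 and 90.98%. The part of these lists in the results on cell cycle genes was not tested. The floxed genes still showed regions in every library, with 10, 6, 17 and 16 called of 18 in Rxra and 2, 1, 2 and 1 of 2 in Rxrb. The deleted exons are not placed in the sources used here, so this does not test the deletion.

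To show what lies at these starts, the reference sequence upstream of 8 TSSs is given, chosen for regions described below in DNA replication (Cdc6, Mcm6, Mcm2), CDK activity (Cdk2), mitotic kinases and exit (Aurka, Ttk, Cdc20) and the centromere (Cenpf). Each run holds the 150 bases before a RefSeq TSS (GRCm38.p6, the mm10 build), 5′ to 3′ on the strand of the gene. For Cdc6 this TSS lies inside the gene, after the start at 98907801 from which its region below is measured. The Cdc6 run and its E2F word thus lie downstream of that start. Capitals mark the CHR word TTTGAA, the E2F words TTTCCCGC, TTTGGCGC, TTTCGCGC and TTTGCCGC, and the CCAAT box, on either strand.
Cdc6, chr11:98908001-98908150, plus strand: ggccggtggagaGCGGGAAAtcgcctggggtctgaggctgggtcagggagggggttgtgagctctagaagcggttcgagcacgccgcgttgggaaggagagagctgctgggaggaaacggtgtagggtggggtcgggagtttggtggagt
Mcm6, chr1:128359706-128359855, minus strand: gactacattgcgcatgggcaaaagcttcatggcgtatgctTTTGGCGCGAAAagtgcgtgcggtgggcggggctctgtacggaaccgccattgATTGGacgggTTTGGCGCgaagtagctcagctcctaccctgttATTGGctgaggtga
Mcm2, chr6:88898781-88898930, minus strand: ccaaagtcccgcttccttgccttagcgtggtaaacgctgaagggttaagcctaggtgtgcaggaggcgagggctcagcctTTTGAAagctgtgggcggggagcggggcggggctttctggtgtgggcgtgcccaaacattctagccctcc
Cdk2, chr10:128705052-128705201, minus strand: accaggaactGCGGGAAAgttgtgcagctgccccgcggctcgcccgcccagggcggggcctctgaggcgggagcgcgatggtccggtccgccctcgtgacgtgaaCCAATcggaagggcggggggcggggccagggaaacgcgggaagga
Aurka, chr2:172370571-172370720, minus strand: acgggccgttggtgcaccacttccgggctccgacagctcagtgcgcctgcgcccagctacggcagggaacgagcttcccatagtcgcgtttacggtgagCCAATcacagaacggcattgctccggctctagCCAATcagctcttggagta
Ttk, chr9:83834539-83834688, plus strand: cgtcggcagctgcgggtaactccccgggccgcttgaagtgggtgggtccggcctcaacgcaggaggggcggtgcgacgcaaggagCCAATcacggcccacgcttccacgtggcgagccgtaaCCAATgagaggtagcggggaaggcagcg
Cdc20, chr4:118437344-118437493, minus strand: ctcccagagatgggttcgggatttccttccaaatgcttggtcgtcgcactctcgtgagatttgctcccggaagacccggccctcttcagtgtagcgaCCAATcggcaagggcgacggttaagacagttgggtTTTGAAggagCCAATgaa
Cenpf, chr1:189688087-189688236, minus strand: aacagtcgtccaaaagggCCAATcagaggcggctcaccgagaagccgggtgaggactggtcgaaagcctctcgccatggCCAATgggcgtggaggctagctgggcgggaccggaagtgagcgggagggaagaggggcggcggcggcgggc

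Mcm6 shows 3 E2F words, of which 2 overlap, and 2 CCAAT boxes, while Cdc20 shows a CHR word between 2 CCAAT boxes. E2F words are letters that E2F factors can bind, the CHR (cell cycle genes homology region) is known from promoters active in mitosis, and the CCAAT box is bound by NF-Y. Such letters were counted in the 300 bases from 250 upstream to 50 downstream of the starts of the 41 genes held in the RefSeq promoter table, beside all 27025 genes of that table. Aurkb, Ccna2, Ccnd1, Ccnd2, Ccne2, Cdca2 and Foxm1 had no entry. The CHR word stood in 19 of 41 genes (46.3%) against 20.2% of all genes, the variant TTTAAA in 11 (26.8%) against 14.9%, and an E2F word in 8 (19.5%) against 2.61%. The CCAAT box stood in 32 (78.0%) against 41.1%, and the GC box GGGCGG in 34 (82.9%) against 38.2%. The member windows were richer in G and C, with a median of 59% against 52.7%, which was not corrected for, and GC box and E2F words can share bases.

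The letters split by role. An E2F word stood in 5 of 10 replication genes (Cdc6, Mcm3, Mcm5, Mcm6 and Mcm7), in Cdk1, Cdk2 and E2f2, and in 0 of the 7 kinase, checkpoint and exit genes and 0 of the 11 chromosome, centromere and spindle genes. The CHR word went the other way, with 2 of 10 replication genes, 5 of 7 kinase, checkpoint and exit genes and 9 of 11 chromosome, centromere and spindle genes. A CHR, E2F or CCAAT word stood in 34 genes (82.9%) against 53.5% of all genes, and all 3 in 2 genes, Cdk1 and E2f2. Words of factors known from macrophages were below their share of all genes, with an AP-1 word (TGAGTCA or TGACTCA) in 0 against 5.95%, a GATA word (AGATAA or TGATAA) in 4 (9.76%) against 21.0%, a C/EBP word (TTGCNNAA) in 3 (7.32%) against 12.2%, and a PU.1 word (GAGGAAGT) in 1 (2.44%) against 3.69%. A CRE word (TGACGTCA) stood in 2 (4.88%) against 2.03%. DR1 and DR5 repeats, which RXR dimers can bind, stood in 0 members, against 0.263% and 0.115% of all genes. These are matches of letters in 1 window, not binding sites.

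**Figure D1:**
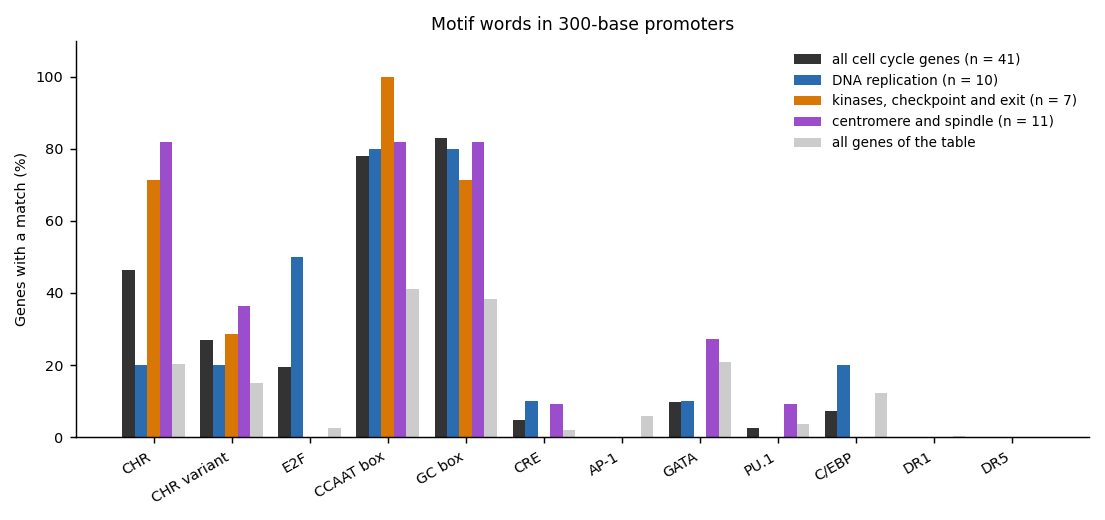
Share of genes (%) whose 300-base promoter holds each motif word on either strand, for all 41 cell cycle genes found in the promoter table, for 3 of the role groups, and for all genes of the table (grey). E2F words stood in 50% of replication genes and in 0 genes of both mitosis groups, and the CHR word in 71.4% and 81.8% of the mitosis groups.

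Cell cycle promoters were open in LPMs of both genotypes. A promoter region was called at 44 of the 48 genes (91.7%), against 50.7% of 24963 autosomal genes. In Cdc45 it was nearer the TSS of Ufd1 and is not among the 190 regions, which leaves 43 genes. Of the other 5 genes, 4 had a region just inside the gene, at 205 bp in Rrm2, 217 bp in Tyms, 257 bp in Cdc45 and 263 bp in Cdk6 downstream of the TSS, the latter 2 at the promoters of Ufd1 and Gm36470. The region of Ccna2, which encodes the cyclin of replication and early mitosis, lay 877 bp downstream of the RefSeq TSS at 36573038 of chromosome 3, and GENCODE places starts at 36572150 and 36571551. Together these 48 regions are called start regions here, 1 for each gene. Some are shared with a neighbour, as in Aurka and Cstf1, Cdca2 and Kctd9, Cdca3 and Usp5, Cdca5 and Zfpl1, Foxm1 and Rhno1, and Mcm7 and Ap4m1.

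Of the 48 start regions, 36 were called in all 4 libraries, and 12 were missed in control replicate 3. These 12 were Aurkb, Bub1, Bub1b, Ccnb2, Ccnd2, Cdk1, Cdk6, Cenpe, E2f2, Plk1, Rrm2 and Tyms, and 11 of them were called in the other 3 libraries. The start of Ccnd2 was called in control replicate 1 and RXR-deficient replicate 1 only, with a fold enrichment of 4.46 and 6.38. The missed regions were also low in the deeper control library, where their pileup was 15 to 63 (median 45) for the 11, against 50 to 662 (median 127.5) for the 36. Among genes with a promoter region, 34 of the 44 cell cycle genes (77.3%) had one in all 4 libraries, against 64.2% of all such genes.

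**Figure D2:**
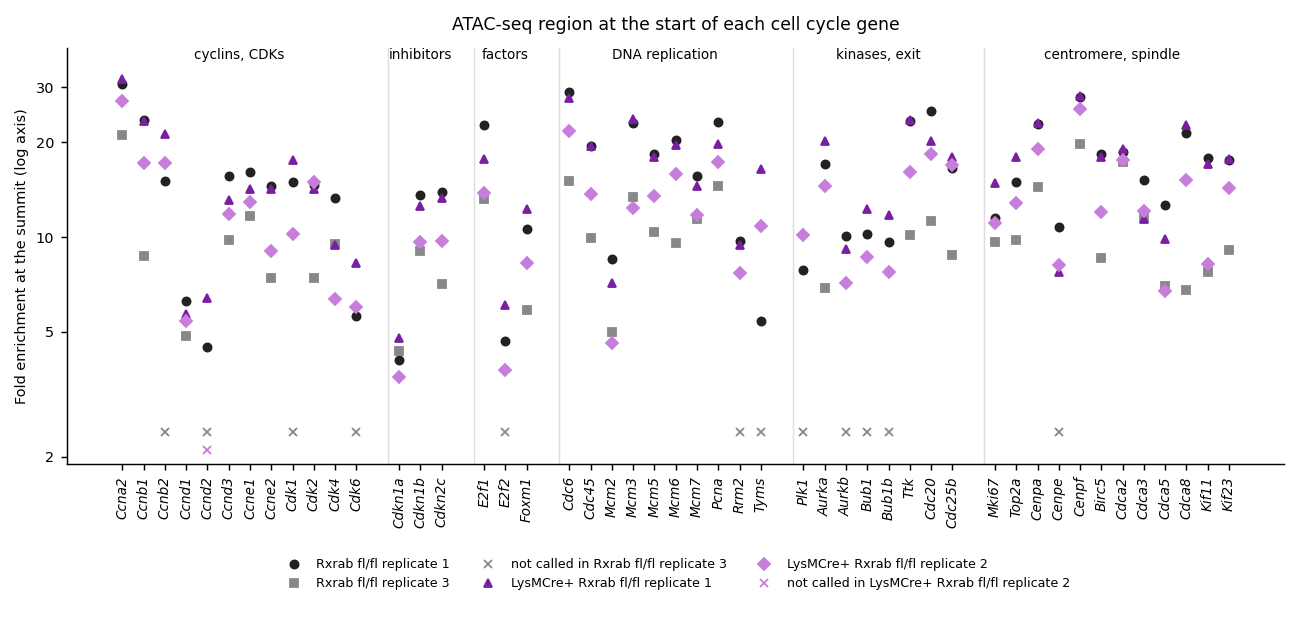
Fold enrichment over local background (log axis) of the region at the start of each of the 48 genes, grouped by role, with 1 point per library and crosses for regions not called. Control replicate 3 (grey squares) was lowest in 30 of the 36 start regions called in all 4 libraries, and the other control library (black circles) was highest in 20.

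Over these 36 regions the median fold enrichment was 17.3 and 9.60 in control replicates 1 and 3, and 17.9 and 13.2 in RXR-deficient replicates 1 and 2. Each median was above that library's median over all regions called in all 4 libraries. Over all promoters called in all 4 libraries the medians were 16.6, 8.99, 16.2 and 12.75 in the same order, nearer to those of the starts. Raw values follow the strength of the library, so fold enrichment was compared on the log2 scale after subtracting each library's median over the 15199 shared regions. A positive change is higher in RXR-deficient LPMs, and a call needed an adjusted p under 0.05 in limma and a log2 change past 1.

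No region of a cell cycle gene passed this test. Of 54 regions tested (38 promoter and 16 other), 0 were higher in RXR-deficient LPMs, against a background of 0.0395% of 15199 regions, and 0 were higher in control LPMs, against 0.0461%. At an unadjusted p under 0.05 limma gave 11 of the 54 (20.4%), against 22.0% of all regions. Standard errors of the log2 change ran from 0.20 to 0.29. The promoter regions had a median log2 change of -0.17, from -0.91 to 0.52, and all promoters tested had a median of -0.18. The 16 other regions had a median of -0.23, from -0.71 to 0.64, against 0.00 for all other regions tested. Centred values of both control libraries lay above those of both RXR-deficient libraries in 23 regions (42.6%), against 32.9% of all regions, and the reverse held in 6 (11.1%), against 22.3%.

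Fold enrichment is a ratio to the local background, so the pileup itself was also tested, centred in the same way. Of 53 regions with a pileup in all 4 libraries, 3 were higher in RXR-deficient LPMs (5.66%, background 2.49%) and 1 was higher in control LPMs (1.89%, background 4.98%). At an unadjusted p under 0.05 limma gave 18 (34.0%), against 33.2% of all regions. The promoter regions had a median log2 change in pileup of -0.19, against -0.20 for all promoters, and the other regions 0.24, against 0.00. Among the 54 regions called in all 4 libraries, centred pileups of both control libraries lay above those of the RXR-deficient libraries in 22 (40.7%, background 36.9%). The reverse held in 14 (25.9%, background 25.2%). The count of 22 includes the promoter of Mcm3, where RXR-deficient replicate 1 had no solved pileup. The measures had opposite signs in 18 member regions, a count that also includes this promoter, although it has no change in pileup. Without RXR-deficient replicate 2, limma on the pileup called 0 of 53 member regions, and 0 of all regions, in either direction. At an unadjusted p under 0.05 it gave 14 (26.4%), against 21.9% of all regions. Without control replicate 3, which admits more regions and leaves 1 control library, it called 9 of 105 higher in RXR-deficient LPMs (8.57%, background 5.17%) and 8 higher in control LPMs (7.62%, background 7.89%).

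**Figure D3:**
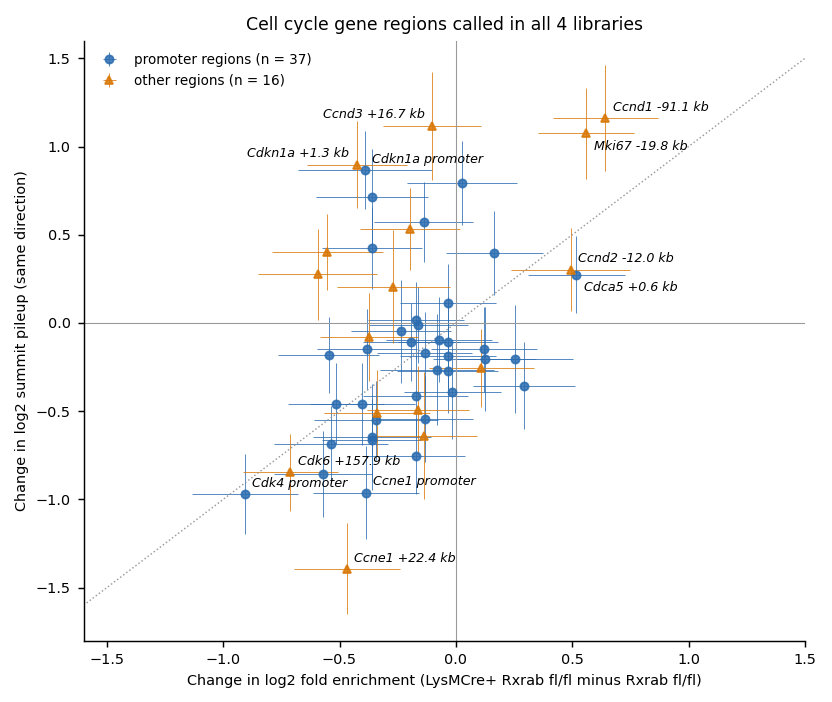
Change between genotypes in log2 fold enrichment (horizontal) and in log2 summit pileup (vertical) for 37 promoter regions (circles) and 16 other regions (triangles) of cell cycle genes called in all 4 libraries, with standard errors from limma and a dotted line where both agree. Distal regions of Ccnd1, Ccnd3 and Mki67 lie above 1 on the pileup scale, and 1 region of Ccne1 lies at -1.39.

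The 4 called regions are the following, with values in the order control replicates 1 and 3, then RXR-deficient replicates 1 and 2. The region 91.1 kb upstream of Ccnd1 (chr7:145030575-145031361), the D-type cyclin that answers growth signals, had a pileup of 40, 13, 93 and 93, and a fold enrichment of 6.81, 4.61, 11.5 and 11.1. Its pileup was higher in RXR-deficient LPMs by 1.16 ± 0.30 (log2, SE; adjusted p = 0.0413 in limma), while the log2 change in fold enrichment was 0.64 ± 0.22 (adjusted p = 0.131). The region 19.8 kb upstream of Mki67 (chr7:135735609-135736723), whose product coats mitotic chromosomes and marks proliferating cells, had a pileup of 54, 11, 94 and 93. After centring, both RXR-deficient libraries were above both control libraries there, with a log2 change of 1.07 ± 0.26 in pileup (adjusted p = 0.0346 in limma) and 0.56 ± 0.21 in fold enrichment (adjusted p = 0.148). Its fold enrichment was 10.5, 5.41, 15.4 and 13.4.

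The intronic region of Ccnd3 16.7 kb from the upstream TSS (chr17:47521499-47521908) had a pileup of 104, 14, 147 and 155. Ccnd3 encodes the D-type cyclin that is used widely in blood cells. The log2 change in pileup was 1.12 ± 0.31 (adjusted p = 0.0477 in limma), but its fold enrichment was 11.9, 5.32, 10.2 and 8.95, a log2 change of -0.10 ± 0.21 (adjusted p = 0.806). The local background there was 7.84, 1.82, 13.5 and 16.4 reads, so it was higher in both RXR-deficient libraries, and the direction of this region depends on which measure is read. The region 22.4 kb downstream of the TSS of Ccne1 (chr7:38084730-38085406), past the end of this gene for the cyclin that starts replication with Cdk2, had a pileup of 253, 57, 126 and 55. It was lower in RXR-deficient LPMs by a log2 change of -1.39 ± 0.26 (adjusted p = 0.0211 in limma). Its fold enrichment was 22.2, 15.9, 20.7 and 14.9, a log2 change of -0.47 ± 0.23 (adjusted p = 0.245), and its local background was 10.4, 2.64, 5.14 and 2.76.

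The sequence around the summits of 3 of these regions is given as 200 bases of the plus strand of GRCm38.p6, and that of the Ccnd1 region is not shown. The capitals mark a GATA word (AGATAA) in Ccnd3, and the window of Mki67 holds none of the words searched. That of Ccne1 holds 3 GC boxes, left in lower case, and none of the other words.
Mki67, chr7:135735891-135736090, plus strand: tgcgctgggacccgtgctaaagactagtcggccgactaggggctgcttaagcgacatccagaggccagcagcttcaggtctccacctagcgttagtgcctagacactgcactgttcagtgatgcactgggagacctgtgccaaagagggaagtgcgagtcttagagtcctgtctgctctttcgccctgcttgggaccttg
Ccne1, chr7:38084937-38085136, plus strand: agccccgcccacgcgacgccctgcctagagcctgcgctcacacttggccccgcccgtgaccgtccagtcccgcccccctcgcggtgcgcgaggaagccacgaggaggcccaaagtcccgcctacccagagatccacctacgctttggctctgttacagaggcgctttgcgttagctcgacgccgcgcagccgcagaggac
Ccnd3, chr17:47521608-47521807, plus strand: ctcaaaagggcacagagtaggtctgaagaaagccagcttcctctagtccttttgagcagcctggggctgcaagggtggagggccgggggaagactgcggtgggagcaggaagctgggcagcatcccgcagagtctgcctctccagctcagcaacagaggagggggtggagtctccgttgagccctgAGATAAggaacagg

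Among the 131 other regions, the same 200-base windows held an AP-1 word in 19 (14.5%, against 11.6% of all other regions). A PU.1 word stood in 14 (10.7% against 10.6%) and a GATA word in 11 (8.40% against 12.0%). DR1 and DR5 stood in 0, against 0.164% and 0.176% of all other regions, shares so low that a count of 0 says little.

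Among cyclins and CDKs (12 genes, 75 regions), 8 start regions were called in all 4 libraries. The promoter of Ccnb1, the B-type cyclin that drives entry into mitosis with Cdk1, had the highest mean fold enrichment of their promoters, with 23.6, 8.70, 23.5 and 17.3. Its log2 change was 0.12 ± 0.23, and without the weakest library it was -0.46. The start region of Ccna2 was stronger still, at 30.8, 21.1, 31.9 and 27.1, above 99.99% of the promoters called in all 4 libraries by its mean, with a log2 change of -0.16 ± 0.22. Both starts were open in every library.

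Cdk4, the kinase partner of the D-type cyclins, had the most negative change of all cell cycle promoters. Its fold enrichment was 13.3, 9.50, 9.43 and 6.36 and its pileup 133, 33, 79 and 48, so each control library was above each RXR-deficient one in fold enrichment. The log2 change was -0.91 ± 0.23 in fold enrichment (adjusted p = 0.0735 in limma) and -0.97 in pileup (adjusted p = 0.0320), and so it did not pass the threshold on either measure. Without control replicate 1 the change in fold enrichment was -1.14, and without control replicate 3 it was -1.01, each against the lone control library left. Fits without an RXR-deficient library are not given here for this gene. Cdk2, the partner of cyclins E and A, showed 14.7, 7.38, 14.3 and 15.0 at its promoter and a log2 change of 0.12 ± 0.22.

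The promoter of Ccnd1, a gene that the study names for lower expression in RXR-deficient LPMs, was weakly open. It had a fold enrichment of 6.26, 4.84, 5.68 and 5.39 and a pileup of 55, 14, 83 and 83. Its log2 change was -0.36 ± 0.24 in fold enrichment (adjusted p = 0.388 in limma) and 0.72 ± 0.27 in pileup (adjusted p = 0.103), so its sign differed between the measures and neither passed the test. By mean fold enrichment it was above 1.49% of the promoters called in all 4 libraries. The upstream promoter of Ccnd3 had the smallest log2 change in this group, 0.03 ± 0.24, from 7.31, 5.73, 9.37 and 7.71. The downstream promoter of Ccnd3 had 15.7, 9.79, 13.1 and 11.9, and the promoter of Ccne1 had 16.1, 11.7, 14.2 and 12.9. Ccne1 also had a lower promoter pileup in RXR-deficient LPMs, with a log2 change of -0.96 (adjusted p = 0.0483 in limma), just short of the fold threshold. Ccne2 had 14.5, 7.38, 14.2 and 9.06, a log2 change of -0.23 ± 0.21.

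Starts of Ccnb2, Cdk1 and Cdk6 were missed in the weakest library alone. Cdk1, the kinase of mitosis, had 15.0 in control replicate 1 and 17.6 and 10.2 in the RXR-deficient libraries, and Ccnb2 had 15.1, 21.3 and 17.2. Cdk6 had 5.61, 8.25 and 5.98, a weak start beside the strong regions inside its gene.

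Distal regions were concentrated in a few of these genes. Cdk6 had 23 regions, Ccnd1 15, Ccnd3 10 and Kif23 10, while the median gene had 2.5 and 14 genes had 1. Among other regions called in all 4 libraries, the strongest of Ccnd1 by mean fold enrichment lay 31.5 kb upstream, with 14.7, 9.51, 16.3 and 16.5. A region 42.1 kb upstream, not called in control replicate 3, had 7.96 in control replicate 1 and 19.9 and 16.5 in the RXR-deficient libraries. That of Ccnd2, a D-type cyclin as well, lay 12.0 kb upstream with 16.6, 5.13, 20.4 and 13.8 and a log2 change of 0.49 ± 0.26, or -0.21 without the weakest library. In Ccnd3 it lay 6.3 kb inside the gene with 14.8, 9.47, 14.5 and 12.3. In Cdk6 it lay 158.9 kb inside the gene with 16.9, 11.5, 14.2 and 14.2, and a neighbour at 157.9 kb had 9.13, 5.08, 6.04 and 4.78 and a log2 change in pileup of -0.85 (adjusted p = 0.0402 in limma). These long introns hold regions in every library, with some closer to the TSS of Fam133b than to that of Cdk6.

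**Figure D4:**
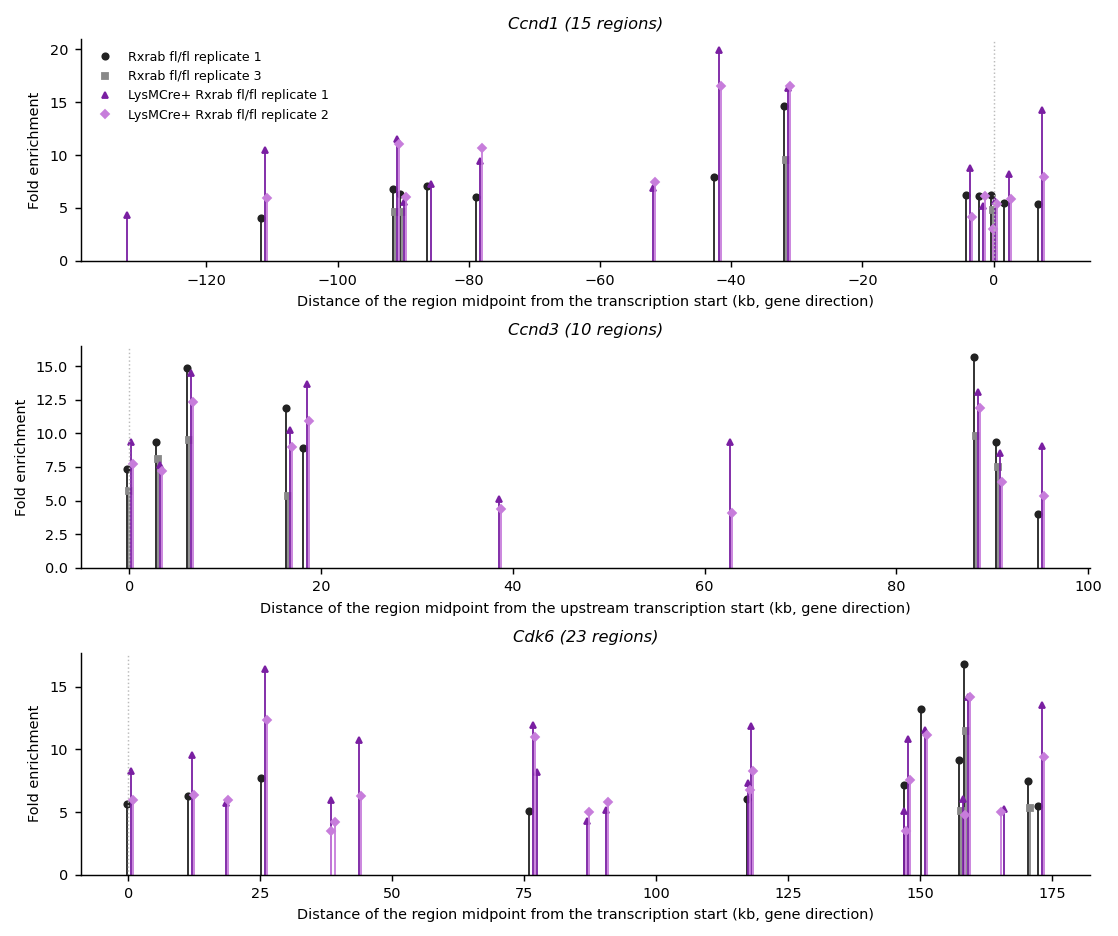
Fold enrichment of every region of Ccnd1, Ccnd3 and Cdk6 against the distance of its midpoint from the TSS in kb, with 1 stem per library, drawn side by side so that the stems can be told apart. The region 42.1 kb upstream of Ccnd1 reached 19.9 and 16.5 in RXR-deficient LPMs against 7.96 in control replicate 1, and it was not called in control replicate 3.

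CDK inhibitors hold the kinases in check (3 genes, 10 regions). The promoter of Cdkn1b, which restrains CDKs in resting cells, had a fold enrichment of 13.6, 9.06, 12.6 and 9.63 and a log2 change of -0.38 ± 0.22. That of Cdkn2c, an inhibitor of Cdk4 and Cdk6, had 13.9, 7.10, 13.3 and 9.72 and a log2 change of -0.17 ± 0.21. Cdkn1a, a target of p53, stood apart from the rest. Its promoter region had only 4.06, 4.33, 4.77 and 3.58, above 0.224% of the promoters called in all 4 libraries, but a pileup of 104, 25, 216 and 133. The local background was 24.8, 5.00, 44.5 and 36.5, so it was higher in both RXR-deficient libraries than in either control library. The log2 change was -0.39 ± 0.29 in fold enrichment and 0.87 in pileup (adjusted p = 0.0398 in limma). The region 1.3 kb into the gene was stronger, with 13.8, 8.97, 11.9 and 9.57 and a pileup of 378, 55, 587 and 408, with a log2 change of -0.43 ± 0.21 in fold enrichment and 0.90 in pileup (adjusted p = 0.0479 in limma).

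Among the transcription factors (3 genes, 12 regions), the promoters of E2f1 and Foxm1 were called in all 4 libraries. E2f1, an activator of replication genes, had 22.8, 13.2, 17.8 and 13.8 and a log2 change of -0.52 ± 0.21 (adjusted p = 0.175 in limma). Foxm1, an activator of mitosis genes, had 10.6, 5.86, 12.3 and 8.28 and a log2 change of -0.01 ± 0.21. E2f2 had a weak start, with 4.67, 6.10 and 3.77 outside the weakest library. Its strongest other region, 4.8 kb into the gene, had 9.69 in control replicate 1 and 20.4 and 14.7 in the RXR-deficient libraries. A region at a promoter of E2f2, 647 bp upstream of its TSS, was the 1 member promoter called only in the RXR-deficient libraries, with 8.44 and 6.55.

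DNA replication genes load and fire origins or supply nucleotides (10 genes, 29 regions). Their promoters in all 4 libraries had log2 changes from -0.55 to -0.03. The promoter of Cdc6, which loads the MCM helicase onto origins, was the strongest, with 29.0, 15.0, 27.7 and 21.8. Among the helicase subunits, Mcm6 had 20.4, 9.54, 19.6 and 15.8 and a log2 change of -0.03 ± 0.21, and Mcm2 had 8.49, 4.97, 7.14 and 4.61 and a log2 change of -0.55 ± 0.22 (adjusted p = 0.168 in limma). Their upstream sequences above hold 3 E2F words in Mcm6 and a CHR word in Mcm2, and a link to these changes was not tested. Mcm3 had 23.0, 13.4, 23.7 and 12.4, Mcm5 18.3, 10.4, 18.0 and 13.5, and Mcm7 15.7, 11.4, 14.5 and 11.8 at the stronger of its regions. Pcna, the sliding clamp of DNA polymerases, had 23.3, 14.6, 19.8 and 17.3, and Cdc45, a helicase cofactor, had 19.4, 9.93, 19.5 and 13.7.

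The 2 nucleotide enzymes were the replication genes missed in the weakest library. Rrm2, the small subunit of ribonucleotide reductase, had 9.71 in control replicate 1 and 9.47 and 7.66 in the RXR-deficient libraries. Tyms, which makes thymidylate, had 5.39 in control replicate 1 and 16.4 and 10.8 in the RXR-deficient libraries.

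Kinases, checkpoint and exit genes run mitosis (8 genes, 21 regions), and 4 of their starts were called in all 4 libraries. Aurka, the kinase of the spindle poles, had 17.0, 6.88, 20.2 and 14.5 and a log2 change of 0.29 ± 0.22, which was -0.35 on the pileup and -0.22 without the weakest library. Ttk, a kinase of the spindle checkpoint, had 23.5, 10.2, 23.5 and 16.1 and a log2 change of -0.03 ± 0.21. Cdc20, which activates the ligase that ends mitosis, had the highest mean of the group, with 25.1, 11.2, 20.2 and 18.4 and a log2 change of -0.17 ± 0.21. None of these changes passed the test. Cdc25b, a phosphatase that activates Cdk1, had 16.6, 8.75, 18.0 and 16.9. The starts of Plk1, Aurkb, Bub1 and Bub1b, kinases and checkpoint proteins of mitosis, were missed in the weakest library alone. In the other 3 libraries, Plk1 had 7.86, 10.3 and 10.2, Aurkb 10.1, 9.19 and 7.12, Bub1 10.2, 12.3 and 8.63, and Bub1b 9.63, 11.8 and 7.71.

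Chromosome, centromere and spindle genes formed the group with the most starts in all 4 libraries (12 genes, 43 regions, 11 starts). Cenpf, a protein of the kinetochore, had the strongest promoter, with 27.8, 19.8, 28.2 and 25.6, above 99.75% of the promoters called in all 4 libraries. The study reports significantly reduced accessibility at Cdca2 and Cenpe in RXR-deficient LPMs. Its test was on read counts, which are not used here. Cdca2 encodes a subunit that brings a protein phosphatase to chromosomes. Its promoter, shared with Kctd9, had a nearly level fold enrichment of 18.7, 17.3, 19.0 and 17.6 and the highest pileup of any start, at 662, 161, 517 and 318. Its log2 change was -0.34 ± 0.27 in fold enrichment (adjusted p = 0.460 in limma) and -0.55 ± 0.22 in pileup (adjusted p = 0.123).

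Cenpe, the kinetochore motor that the study also names, had the only start of this group missed in the weakest library. It had a fold enrichment of 10.8 in control replicate 1 and 7.71 and 8.18 in the RXR-deficient libraries, with a pileup of 45, 30 and 25, so the 1 control library with a call was the highest. With regions called in at least 3 libraries, the log2 change was -0.34 ± 0.30 in fold enrichment (adjusted p = 0.461 in limma) and -0.44 ± 0.36 in pileup (adjusted p = 0.406).

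Cdca5, which holds sister chromatids together, had both ends of the range within 1 locus. Its start had 12.6, 7.01, 9.88 and 6.75 and the most negative change of the group, -0.57 ± 0.21 (adjusted p = 0.147 in limma). A region 638 bp downstream, at a promoter of Zfpl1, had 12.7, 6.60, 18.0 and 15.9 and the largest change, 0.52 ± 0.21 (adjusted p = 0.173). Both regions were alike in the control libraries, and the downstream one was the higher in both RXR-deficient libraries. The difference between them was not tested.

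Kif23, a motor of cytokinesis, had the smallest change, with 17.6, 9.12, 17.8 and 14.4 at its promoter and a log2 change of -0.03 ± 0.20, and Kif11, the motor that separates spindle poles, had 17.9, 7.76, 17.1 and 8.22. Mki67 had 11.5, 9.65, 14.9 and 11.1, and Top2a, which untangles replicated DNA, had 14.9, 9.78, 18.0 and 12.9. Cenpa, the histone of centromeres, had 22.9, 14.4, 23.1 and 19.0. In the complex that corrects chromosome attachment, Birc5 had 18.4, 8.56, 18.0 and 12.0 and Cdca8 21.4, 6.80, 22.7 and 15.2. Cdca3, a trigger of entry into mitosis, had 15.2, 11.5, 11.4 and 12.1. None of these starts passed the test on either measure.

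The question of which regions appear in only 1 genotype was asked by calls rather than levels. Promoter regions of cell cycle genes were called in all 4 libraries in 38 of 59 cases (64.4%, background 55.8%). Only 1 (1.69%) was called in both RXR-deficient libraries and neither control library, against a background of 8.91%, and 0 were called in both control libraries only, against 0.0156%. Of the 131 other regions, 16 (12.2%) were called in all 4 libraries (background 13.9%), 32 (24.4%) only in both RXR-deficient libraries (background 25.9%), and 1 (0.763%) only in both control libraries (background 0.0518%). The shares called in all 4 and only in RXR-deficient libraries are thus near those of all other regions, while the control-only share rests on 1 region. The control-only region is intronic in Cdk6 (chr5:3514766-3515194), with a fold enrichment of 7.45 and 5.34 and a pileup of 27 and 10.

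In 5 genes, 3 or more regions were called only in RXR-deficient LPMs. The strongest of them was 43.5 kb into Cdk6 with 10.7 and 6.25, 7.0 kb upstream of Cdc6 with 13.0 and 11.8, 27.1 kb downstream of the TSS of Rrm2 with 13.6 and 7.21, and 35.3 kb upstream of Kif23 with 6.41 and 5.12. In E2f2 it was the promoter region named above. These genes had 23, 6, 5, 10 and 9 regions in the order named, and 22.8% of all regions were called only in both RXR-deficient libraries. The share of all genes with 3 or more such regions was not counted. Of 72 other regions outside the 5 genes with most regions, 18 (25%) were called only in the RXR-deficient libraries.

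These counts move with the number of peaks per library. When the 16097 strongest peaks of each library were kept, promoter regions were called in all 4 libraries in 29 of 45 cases (64.4%, against 65.0% of all promoters), in RXR-deficient LPMs only in 0 (against 2.71%) and in control LPMs only in 3 (6.67%, against 7.23%). The 3 control-only promoters were those of Cdca5, Foxm1 and Mcm2. Of 31 other regions, 4 (12.9%, against 11.0%) were called in RXR-deficient LPMs only, 2 at Ccnd1 and 1 each at Cdk6 and E2f2, and 1 at Cdk6 (3.23%, against 7.22%) in control LPMs only.

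**Figure D5:**
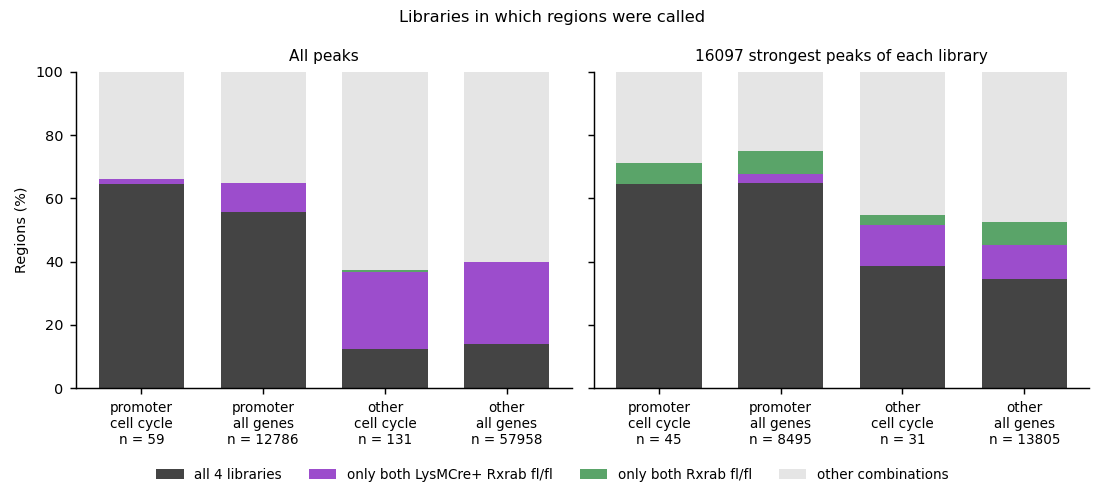
Share of regions (%) called in all 4 libraries, only in both RXR-deficient libraries, only in both control libraries, or in other combinations, for cell cycle genes beside all genes, with all peaks (left) and with the 16097 strongest peaks of each library (right). With all peaks, 24.4% of other regions of cell cycle genes and 25.9% of all other regions were called only in RXR-deficient LPMs.

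Regions missed in 1 library were brought back by testing regions called in at least 3 libraries, in which a region missing in control replicate 3 rests on 1 control library. On fold enrichment, 7 of 106 member regions were higher in RXR-deficient LPMs (6.60%, background 8.14%) and 0 were higher in control LPMs (background 0.371%). On the pileup, 14 were higher in RXR-deficient LPMs (13.2%, background 11%) and 2 in control LPMs (1.89%, background 2.58%). The latter were the region past the end of Ccne1 and the promoter of Mcm3. At Mcm3 the pileup of RXR-deficient replicate 1 could not be solved, so RXR-deficient replicate 2 alone stood for its genotype. The fold enrichment there was 23.0, 13.4, 23.7 and 12.4, highest in the library without a solved pileup. The 7 calls on fold enrichment were all missed in control replicate 3 and called in control replicate 1. They were the start of Tyms, with a log2 change of 1.41 ± 0.29 (adjusted p = 0.0116 in limma), the region 12.0 kb upstream of E2f2 with 1.40 (adjusted p = 0.0112), and 5 regions of Ccnd1 and Cdk6.

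In Ccnd1 these lay 111.2 kb and 42.1 kb upstream and 7.3 kb downstream of the TSS, with log2 changes of 1.08, 1.29 and 1.09. In Cdk6 they lay 76.5 kb and 172.9 kb inside the gene, with log2 changes of 1.29 and 1.15. In each of them both RXR-deficient libraries lay above the 1 control library with a call, which the selection for a positive change made likely.

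The other genes of the pathway were taken from a list of 118 cell cycle genes that are not among the 48. Of these, 115 had at least 1 region, and Cenpi, Kif4 and Pola1, which lie on the X chromosome, had none, since reads on sex chromosomes were removed. Their 379 regions were called 230, 130, 348 and 312 times, and 72 (19%) were called only in both RXR-deficient libraries, against 22.8% of all regions, and 0 only in both control libraries, against 0.0452%. On fold enrichment 0 of 128 tested regions passed in either direction, and limma gave 23 (18.0%) at an unadjusted p under 0.05, against 22.0% of all regions. On the pileup, 0 were higher in RXR-deficient LPMs and 7 were higher in control LPMs (5.47%), near the background of 4.98% given above. The 7 were the promoters of the condensin genes Ncapg, Ncapg2 and Smc2, of Mcm4, of Pold1, the catalytic subunit of a replicative DNA polymerase, and of the spindle motor Kif15, and a region 9.0 kb into Cit. Ncapg had the largest of these changes, with a pileup of 200, 36, 86 and 43 and a log2 change of -1.35 ± 0.24 (adjusted p = 0.0203 in limma). Its log2 change in fold enrichment was -0.78 (adjusted p = 0.0799). The median log2 change of promoters in this list was -0.20 in fold enrichment and -0.27 in pileup, close to the medians of the 48 genes and of all promoters.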

How the data were processed

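ATAC-seq was run on sorted LPMs of 2 genotypes with 2 libraries each. According to the study's methods and the submitters' processing notes, adaptors were trimmed with cutadapt, reads aligned to mm10 with Bowtie2, duplicates, low-quality alignments and everything on the mitochondrial genome and chromosomes X and Y removed, and peaks called per library with MACS2 2.1.1 (extension 200 bp, q 0.05) and filtered for blacklisted regions with bedtools 2.24.0. ATAC-seq samples that did not group with their genotype were left out by the authors. The deposited peak lists hold the fold enrichment at the summit, a ratio to local background, with the −log10 of its p-value and q-value, an integer score and a summit offset. The authors tested read counts with edgeR 3.20.9 through DiffBind 2.6.6, and read counts are not used here.

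Whole-number pileups were solved from the fold enrichment and −log10 p-value of each deposited peak, with the MACS2 pseudocount of 1, for all but 3 of 175147 peaks. The lowest local background of a library, which stands for its depth, was 1.97, 1.06, 1.33 and 1.08 reads. Peaks sharing 1 bp were merged and placed on RefSeq curated transcripts of GRCm38.p6. Log2 fold enrichment (or log2 pileup), centred on each library's median over regions called in all 4 libraries, was fitted with limma 3.58.1 (R 4.3.3) over all such regions, with Benjamini-Hochberg adjustment, an adjusted p under 0.05 and a log2 change past 1. An exact permutation test of 2 against 2 libraries cannot go below p = 0.333. The pileup solving, the merging, the motif search and the limma fit were tested on simulated data. The software was pandas 2.3.3, numpy 2.4.6, pysam 0.24.0, scipy 1.17.1 and matplotlib 3.10.9 under Python 3.11.15.

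The 48 genes, the other lists and the tests were chosen with earlier results of these data known. Values per library are given for promoters of genes that the study names and for regions past the threshold on either measure. They are also given for the largest, smallest and most negative promoter changes and the strongest promoter of each role group. The same holds for the strongest genotype-only region of genes with 3 or more, and the strongest other region of Ccnd1, Ccnd2, Ccnd3, Cdk6, Cdkn1a and E2f2. Further start regions were added to account for every gene. Alternatives were the pileup, another centring, a mean-variance trend, regions called in at least 3 libraries, equal peak numbers, a q of 0.01, summit windows, other promoter windows, assignment by nearest TSS and leaving out each library. Testing the pileup under these settings was added after the data had been seen. Of the marker genes listed for other cell types, 1 is not reported here by name.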

Additional observations from a re-analysis of the deposited data

How the results depend on the processing

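No paired analysis was made because the labels record no pairing between libraries of different genotypes. The counts on fold enrichment (0 regions in either direction) became 3 higher in RXR-deficient LPMs and 1 higher in control LPMs on the pileup, and 7 higher in RXR-deficient LPMs with at least 3 libraries. Leaving out 1 library gave 0 to 2 and 0 to 1, and the lone library of a genotype is then assumed to vary like the other genotype. On the pileup, the 3 regions higher in RXR-deficient LPMs became 5 when centred on promoters, 14 with at least 3 libraries, 5 by adjusted p alone and 0 to 9 without 1 library. The 1 region higher in control LPMs became 2 with at least 3 libraries, 4 by adjusted p alone and 0 to 8 without 1 library. For the other cell cycle genes, the 0 regions higher in RXR-deficient LPMs became 10 with at least 3 libraries and 0 to 5 without 1 library, and the 0 higher in control LPMs became 7 on the pileup, 1 with a mean-variance trend, 1 with at least 3 libraries and 0 to 3 without 1 library. The median promoter change of -0.17 ranged from -0.44 to -0.11 without 1 library. The median change of other regions of -0.23 became 0.24 on the pileup, 0.43 with at least 3 libraries and -0.40 to 0.076 without 1 library. The 33 regions called only in RXR-deficient LPMs became 4 with equal peak numbers and 33 to 85 without 1 library. The 1 region called only in control LPMs became 4 with equal peak numbers, 3 with summit windows, 0 by nearest TSS only and 1 to 2 without 1 library. The 38 promoters called in all 4 libraries stayed within 1.5 times that count under every alternative. The intronic Ccnd3 region at 16.7 kb reversed, from -0.10 to 1.12 on the pileup. This was the only region that changed sign and passed the threshold on either side. Of 485 values of 54 single regions under the alternatives, 5 more passed the threshold there, with the sign kept. In all, 47 values, from 27 regions, had the other sign than in the test on fold enrichment, and 23 of these lay within the median residual SD of 0.19 of that value. Apart from fewer samples, more regions or shorter lists where a setting makes them so, the cause was not tested. With 2 libraries a genotype and the weakest one in the control group, small changes and weak regions are not resolved.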
